A study of Rattus norvegicus with 32 samples.

Results

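Rats that lack UCP1 cannot make heat with the protein that brown fat uses for it, and the comparison described here gives the differences in gene expression after 2 weeks at 4 °C in their gastrocnemius, the large and mostly fast-twitch muscle of the calf. The members are all genes measured in the 18 libraries of knockout rats, 9 kept at room temperature (KO_RT) and 9 after the cold (KO_4C), of 32 libraries in the series. The other 14 libraries are from control rats, also called wild-type in the labels, 7 at room temperature (control_RT) and 7 after the cold (control_4C). All rats were males of 20 weeks on chow, the diet named in the series title. The sources used here give neither the strain nor the knockout allele. It is also not stated whether a rat sampled at room temperature could be the same as one sampled in the cold, so p-values reflect only how far samples spread, which may be in part technical. Ucp1 was not analysed here, and the genotype labels were therefore not checked by the targeted gene.

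UCP1 is a carrier of the inner mitochondrial membrane of brown fat that lets protons return without making ATP, so that fuel is burned for heat. Skeletal muscle makes heat by shivering, and without shivering through calcium pumps of the sarcoplasmic reticulum (SERCA). Sarcolipin, a small peptide bound to these pumps, lets them split ATP while moving less calcium, which releases heat. Gastrocnemius can also shift between fast, glycolytic fibres and slow, oxidative fibres when its nerve activity changes.

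The counts come from 3′-end sequencing (QuantSeq), which reads 1 end of each transcript, and levels are given as CPM, counts scaled to a common library total. Knockout libraries held 7.28e+06 to 2.58e+07 counts. A gene was called when edgeR's quasi-likelihood test gave a Benjamini-Hochberg adjusted p under 0.05, and changes are log2 differences, KO_4C minus KO_RT, with their standard error (SE). Of 11594 genes tested, 1596 (13.8%) were called after the cold, 868 higher (7.49%) and 728 lower (6.28%). Counts of calls in the gene lists below are to be read against these shares. At least 2-fold changes were called for 117 genes upward (1.01%) and 69 downward (0.595%). The values of the 9 cold libraries lay wholly above those of the 9 room-temperature libraries for 113 genes (0.975%) and wholly below them for 79 (0.681%). The median log2 change over all tested genes was 0.01.

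Of the room-temperature libraries, those in columns RT.KO8 and RT.KO10 stood apart from the other 7. Their positions on the first principal component of the 18 libraries, which held 25.5% of the variance, were -85.6 and -52.1, whereas the other 7 lay between -10.6 and 8.68. Without this pair 1282 genes were called, 745 higher and 537 lower, and 1086 of them were among the 1596. Results that this pair decides are given with and without it. The 10 most abundant genes took 26.3 to 29.9% of the counts at room temperature and 23 to 25.3% in the cold, with no overlap (exact permutation test, two-sided, adjusted p = 0.00074 over 18 library measures). Mitochondrial transcripts took 8.96 to 12.6% and 8.12 to 11.5%, which did not differ beyond the spread (exact permutation test, adjusted p = 0.0864), but without RT.KO8 and RT.KO10 the difference passed (exact permutation test, adjusted p = 0.0318).

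**Figure D1:**
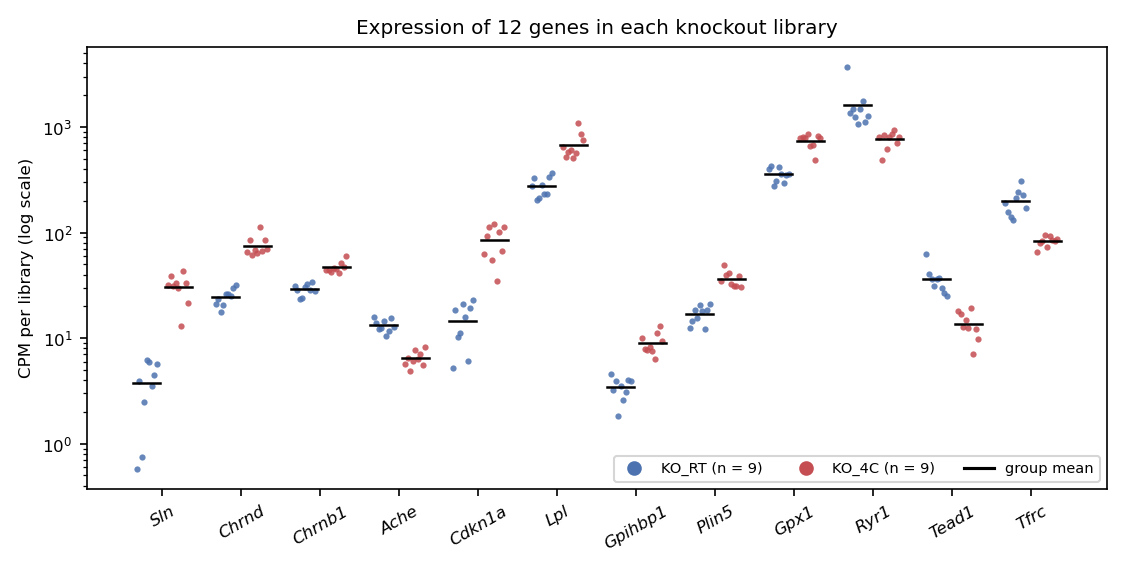
CPM on a log scale in each of the 9 KO_RT (blue) and 9 KO_4C (red) libraries for 12 genes, with the group mean as a black bar. Every gene shown has cold libraries wholly above or wholly below the room-temperature libraries, and Sln has the lowest single value, 0.574 CPM, while RT.KO8 stands above all other libraries for Ryr1.

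Transcripts of the slow-fibre calcium pump and its peptide regulators rose, while parts of the calcium release machinery fell. In the list of SERCA pumps and their peptide regulators, 4 of 6 tested genes were higher, none lower, and the median log2 change was 0.72. Atp2a1, the fast-fibre pump, was not analysed here. Sarcolipin (Sln) ran from 0.574 to 6.16 CPM (median 3.95) at room temperature and from 12.9 to 42.8 CPM (median 31.9) in the cold. The lowest cold library was thus above the highest room-temperature library, and the change was 3.01 ± 0.37 (edgeR, adjusted p = 1.49e-06). Phospholamban (Pln), which slows the cardiac and slow-fibre pump, was at 5.32 to 11.8 CPM (median 7.21) and 9.26 to 18 CPM (median 12.9). Its groups overlapped, with a change of 0.72 ± 0.15 (edgeR, adjusted p = 0.000697). Atp2a2, the slow-fibre pump itself, rose 1.74-fold, from a median of 587 CPM (371 to 908) at room temperature to 1013 CPM (715 to 1560) in the cold. Tmem38b, which is neither pump nor peptide but a potassium channel of the reticulum that balances charge while calcium leaves, did not overlap between groups, with 127 to 216 CPM (median 188) against 248 to 382 CPM (median 302), a change of 0.72 ± 0.10 (edgeR, adjusted p = 4.33e-06).

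On the release side, 5 of 20 triad genes fell and 1 rose. The triad is the junction where the surface membrane signals calcium release, and its median log2 change was -0.08. Ryr1, the release channel, was at 1058 to 3688 CPM (median 1350) at room temperature and 490 to 941 CPM (median 798) in the cold, with no overlap. Its highest value belonged to RT.KO8, and the change of -1.07 ± 0.17 was -0.80 ± 0.12 without RT.KO8 and RT.KO10 (edgeR, adjusted p = 1.66e-05). Cacna1s, the voltage sensor that opens Ryr1, fell from a median of 25 CPM (19.3 to 38.4) at room temperature to 15.5 CPM (10.6 to 19.2) in the cold, also without overlap. Its partner subunit Cacng1 changed by -0.42 ± 0.09 (edgeR, adjusted p = 0.000709), and Jsrp1 and Bin1, which hold the triad together, were the other genes that fell. Jsrp1 was not called without RT.KO8 and RT.KO10 (-0.30 ± 0.10; edgeR, adjusted p = 0.0607), and Bin1 not without any one of RT.KO11, CC.KO8 or CC.KO9. Calsequestrin 2 (Casq2), the calcium buffer of slow fibres, was the gene that rose, by 0.76 ± 0.18 (edgeR, adjusted p = 0.00432).

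Calcineurin signalling gave a mixed picture. Of 20 calcium signalling genes 2 were higher and 5 lower, and without RT.KO8 and RT.KO10 the lower calls numbered 2. Rcan1, an inhibitor of calcineurin that is itself induced by it, rose from a median of 185 CPM (99.2 to 220) at room temperature to 327 CPM (172 to 414) in the cold, a change of 0.88 ± 0.22 (edgeR, adjusted p = 0.00571). Ppp3ca, a catalytic subunit of calcineurin, fell by 0.34 on the log2 scale, from a median of 338 CPM (284 to 466) at room temperature to 268 CPM (237 to 324) in the cold.

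At the nerve-muscle junction 2 receptor subunits rose and the enzyme that clears the transmitter fell. Among 17 tested genes of the acetylcholine receptor and endplate, 2 were higher and 2 lower, a share near that of all genes, with a median log2 change of -0.10. The 3 promoters below are those of the endplate genes whose groups did not overlap. They are RefSeq sequences of the GRCr8 build, 250 bases before to 50 bases after the start of the gene, written 5′ to 3′ on the strand of the gene: chr9:95310066-95310365 (plus strand) for Chrnd, chr10:55015058-55015357 (minus) for Chrnb1 and chr12:25050361-25050660 (minus) for Ache. Capitals mark 3 motifs searched on both strands: the E-box CANNTG, the N-box CCGGAA and the M-CAT element CATTCC. MyoD-family factors bind some forms of the E-box, and not every match to CANNTG need be such a form. The N-box is an ETS-factor element of synaptic genes, and the M-CAT element is bound by TEAD factors. No matches overlapped each other in these windows.
Chrnd: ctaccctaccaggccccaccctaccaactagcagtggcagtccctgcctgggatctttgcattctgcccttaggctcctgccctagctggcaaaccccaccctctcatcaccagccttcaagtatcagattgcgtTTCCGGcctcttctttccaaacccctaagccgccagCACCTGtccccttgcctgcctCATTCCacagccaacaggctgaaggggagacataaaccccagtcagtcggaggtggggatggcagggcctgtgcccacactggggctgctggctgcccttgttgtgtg
Chrnb1: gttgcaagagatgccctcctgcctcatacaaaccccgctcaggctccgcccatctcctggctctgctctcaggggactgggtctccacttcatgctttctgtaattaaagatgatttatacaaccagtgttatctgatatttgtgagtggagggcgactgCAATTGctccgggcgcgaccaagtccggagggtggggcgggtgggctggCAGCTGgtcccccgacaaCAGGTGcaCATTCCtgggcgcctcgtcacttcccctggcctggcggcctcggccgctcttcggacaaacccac
Ache: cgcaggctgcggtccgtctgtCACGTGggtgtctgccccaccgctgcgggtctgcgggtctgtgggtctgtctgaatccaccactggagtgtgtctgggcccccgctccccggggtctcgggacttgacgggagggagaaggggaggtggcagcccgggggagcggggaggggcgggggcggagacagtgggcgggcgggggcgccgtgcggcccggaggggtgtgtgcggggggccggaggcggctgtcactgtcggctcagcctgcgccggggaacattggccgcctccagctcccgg

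Of 33469 RefSeq promoter windows of this length, 72.1% held an E-box, 14.9% an N-box and 14.2% an M-CAT element. Of the 17 endplate genes, 11 had a window, of which 9 held an E-box, 2 an N-box and 3 an M-CAT element. In Chrnd the N-box began 115 bases before the start, the E-box 79 bases and the M-CAT element 58 bases before it. Chrnb1 held E-boxes 90, 41 and 23 bases and an M-CAT element 15 bases before its start. Ache held only an E-box, 229 bases before the start. A match of letters is a description and shows no binding.

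Chrnd, the delta subunit of the acetylcholine receptor, ran from 17.7 to 31.8 CPM (median 24.9) at room temperature and from 61.5 to 112 CPM (median 68.4) in the cold. Every cold library was above every room-temperature library, with a change of 1.61 ± 0.12 (edgeR, adjusted p = 5e-11). Chrnb1, the beta subunit, was at 23.4 to 34.1 CPM (median 28.6) and 41.5 to 59.4 CPM (median 45.4), again without overlap, and rose 1.61-fold. Ache, the enzyme that breaks down acetylcholine, was at 10.6 to 15.8 CPM (median 12.7) against 4.87 to 8.24 CPM (median 6.38). All 9 cold libraries were below the lowest room-temperature library, a 2.05-fold fall (edgeR, adjusted p = 9.89e-07). The alpha and epsilon subunits missed the threshold: Chrna1 had a log2 difference of 0.35 ± 0.26 and Chrne one of 0.52 ± 0.24. Scn4a, the muscle sodium channel, fell by 0.76 on the log2 scale, but it was not called without RT.KO8 and RT.KO10. Schwann cell markers, which belong to the nerve, were higher for 3 of 10 tested genes, and their summed level of 142 to 292 CPM at room temperature and 172 to 325 CPM in the cold did not differ beyond the spread (exact permutation test, adjusted p = 0.0919); without RT.KO8 and RT.KO10 the difference passed (exact permutation test, adjusted p = 0.0209). The summed level of neuron markers, at 4.46 to 8.46 and 6.25 to 9.87 CPM, was 1.36 times that at room temperature (exact permutation test, adjusted p = 0.0166), with none of its 3 tested genes called by edgeR; without this pair of libraries the ratio was 1.28 and missed the threshold (exact permutation test, adjusted p = 0.0558). The part of nerve RNA in the endplate values was not tested.

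Most slow-fibre sarcomere transcripts rose: 12 of 16 were higher and 1, Mybpc1, was lower, with a median log2 change of 0.72. Myoz2 and Csrp3, Z-disc proteins of slow and cardiac muscle, were at 191 to 498 CPM (median 290) and 167 to 380 CPM (median 294) at room temperature, and at 446 to 742 CPM (median 578) and 373 to 772 CPM (median 622) in the cold. Only small parts of the ranges overlapped, and the changes were 0.96 ± 0.15 and 1.09 ± 0.19 (edgeR, adjusted p = 4.98e-05 and 0.000173). Fhl1, a LIM-domain protein of growing and slow muscle, was the list member without overlap, at 707 to 1549 CPM (median 982) against 1662 to 2257 CPM (median 1967). Tnni1, the slow troponin I, rose from a median of 730 CPM (446 to 1202) at room temperature to 1341 CPM (1107 to 1737) in the cold. Myh7, the slow myosin heavy chain, rose 1.5-fold and its groups overlapped, with 1309 to 3082 CPM (median 2136) and 1781 to 4045 CPM (median 3153); its call ended with 1 surrogate variable in the fit. Myl3, Myh7b and Mb, the oxygen store myoglobin, missed the threshold at log2 differences of 0.28, 0.19 and -0.12.

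Of the fast-fibre transcripts, 6 of 14 were lower, none higher, and the median log2 change was -0.28. Myh2 and Myh4, the other fast myosin heavy chains, were not analysed here. Actn3, the fast-fibre alpha-actinin, went from a median of 3034 CPM (2591 to 4738) at room temperature to 2061 CPM (1675 to 2278) in the cold without overlap, a fall of 0.66 on the log2 scale (edgeR, adjusted p = 1.96e-05). The fast troponin T gene Tnnt3 and the calcineurin-binding Z-disc protein Myoz1 fell by 0.40 and 0.42. Myom2, an M-band protein of fast fibres, was at 53 to 278 CPM (median 94.3) and 40 to 80.2 CPM (median 57.4). Its highest value was from RT.KO8, and the change of -0.97 ± 0.21 was -0.57 ± 0.15 without RT.KO8 and RT.KO10. Myh1, the IIX myosin, changed by -0.47 ± 0.14 (edgeR, adjusted p = 0.0164); without RT.KO8 and RT.KO10 it was not called (-0.34 ± 0.13, adjusted p = 0.0832). Tnni2, Pvalb and Myl1 had log2 differences of -0.07, -0.00 and 0.01 and were not called. The summed level of 11 myofibre markers ran from 117800 to 154400 CPM at room temperature and 91210 to 135300 CPM in the cold (exact permutation test, adjusted p = 0.00568). This sum holds Actn3, Tnnt3, Tnni2 and Pvalb themselves, so it is no separate measure of myofibre content. The part of myofibre content in the fall of fast-fibre genes was not tested. In whole tissue, fewer cells of a type and less RNA per cell cannot be told apart.

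**Figure D2:**
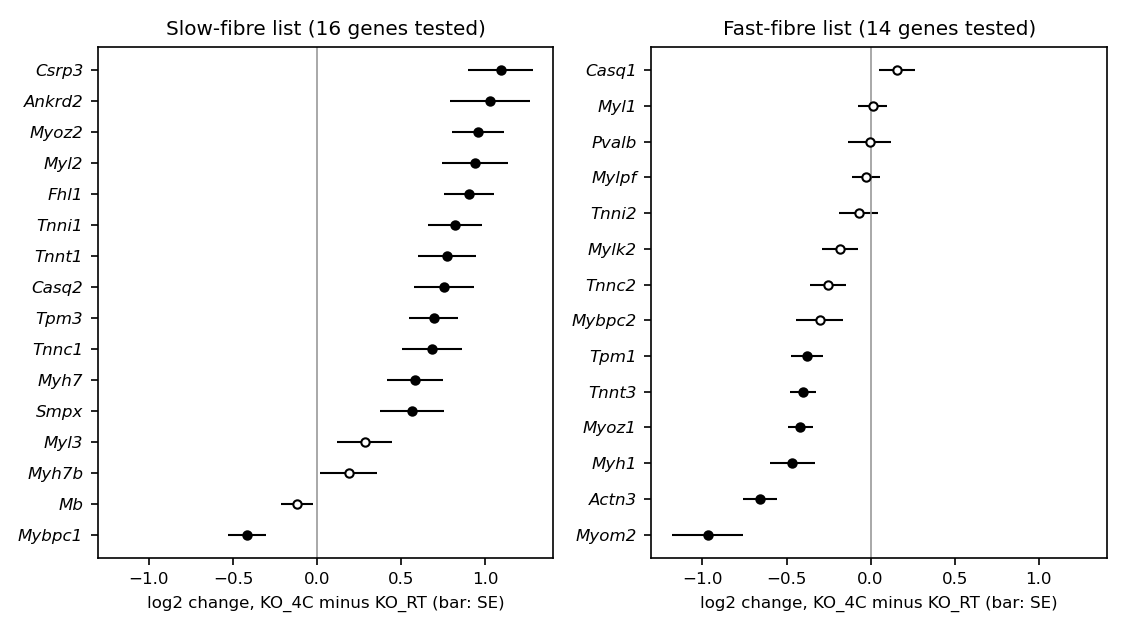
Log2 change (KO_4C minus KO_RT, bars are SE) of the 16 slow-fibre and 14 fast-fibre genes tested, with filled points for called genes and open points for the rest. The slow-fibre points reach 1.09 for Csrp3 with Mybpc1 lowest, and the fast-fibre points reach -0.97 for Myom2.

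In the list of sarcomere frame and Z-disc genes 5 of 24 were higher and 5 lower. Nebulin (Neb), the ruler of the thin filament, fell by 0.80 on the log2 scale, from a median of 7290 CPM (5180 to 11290) at room temperature to 3926 CPM (3013 to 5821) in the cold. Among genes of this list that rose, Cryab, a small heat shock protein bound to desmin, changed by 0.55 ± 0.13. Without RT.KO8 and RT.KO10, 3 genes of this list were lower.

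At the costamere, which fastens the sarcomere to the surface membrane, 7 of 23 genes were lower and 3 higher, and 3 were lower without RT.KO8 and RT.KO10. Sptb, the beta spectrin of the membrane skeleton, was at 9.5 to 31.6 CPM (median 14.6) and 5.57 to 9 CPM (median 7.9), without overlap (-1.09 ± 0.17; edgeR, adjusted p = 1.96e-05). Tln2, a talin that links integrins to actin, fell by 0.64 on the log2 scale. Itga7, the laminin-binding integrin of muscle, moved the other way, from a median of 30.7 CPM (25.8 to 32.8) at room temperature to 41 CPM (33.1 to 46.6) in the cold with no overlap. Cav3, the muscle caveolin, was at 143 to 487 CPM (median 166) and 109 to 165 CPM (median 122); RT.KO8 held the high value, and the change of -0.72 ± 0.15 was -0.47 when RT.KO8 alone was left out.

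Potassium channels and the plasma-membrane calcium pump Atp2b3 fell. Of 19 genes of ion transport and excitability, 6 were lower and 1 higher (3 higher without RT.KO8 and RT.KO10), with a median log2 change of -0.20. Kcnc1, a fast delayed-rectifier channel, was at 8.88 to 25.8 CPM (median 11.4) against 2.44 to 8.03 CPM (median 5.1), without overlap, a change of -1.39 ± 0.21 (edgeR, adjusted p = 1.41e-05). Kcna7, a voltage-gated channel of muscle, and Atp2b3, which pumps calcium out of the cell, also did not overlap, at 25.1 to 47 CPM (median 28.8) and 29 to 37.3 CPM (median 33.8) against 14.6 to 19.9 CPM (median 16.2) and 13.5 to 24.2 CPM (median 19.4). Kcnj11, the pore of the ATP-sensitive potassium channel, fell by 0.55 on the log2 scale (edgeR, adjusted p = 0.000113).

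Some genes for taking up and storing fatty acids rose with no overlap between groups. In that list 6 of 19 tested genes were higher, none lower and 13 not called. The median log2 change was 0.15, in a range of -1.01 to 1.41. In all 6 called genes every cold library exceeded every room-temperature library, against 0.975% of all tested genes. Lpl, the lipase that frees fatty acids from lipoproteins in the capillary, was at 202 to 363 CPM (median 275) and 513 to 1081 CPM (median 604), a change of 1.32 ± 0.13 (edgeR, adjusted p = 2.37e-08). Gpihbp1, the endothelial protein that carries Lpl to the capillary wall, rose 2.66-fold, from a median of 3.5 CPM (1.84 to 4.59) at room temperature to 8.19 CPM (6.38 to 13) in the cold. Plin5, which coats lipid droplets beside mitochondria, rose 2.17-fold, from a median of 18.1 CPM (12.2 to 21) at room temperature to 34.8 CPM (30.3 to 49.7) in the cold. Hormone-sensitive lipase (Lipe) was at 25.2 to 39 CPM (median 31.8) and 45.6 to 61.3 CPM (median 54.6), with a change of 0.79 ± 0.11 (edgeR, adjusted p = 3.03e-06). The fatty acid binding proteins Fabp3 and Fabp4 completed the group, with log2 changes of 0.82 and 0.67. Gpihbp1 and Fabp4 are also expressed by endothelial cells, whose 15 tested markers were higher for 8 genes and lower for none; the summed endothelial level was 1.48 times that at room temperature and the adipocyte sum 1.34 times. Without RT.KO8 and RT.KO10 the adipocyte ratio was 1.19 and missed the threshold (exact permutation test, adjusted p = 0.113). Most of the adipocyte sum, with means of 2825 and 3787 CPM, came from 2 genes. Car3 averaged 1660 CPM at room temperature and 2267 CPM in the cold, and Slc2a4 867 and 1104 CPM. Adipoq averaged 12 and 17.1 CPM, so the sum says little of the other adipocyte markers. The part of endothelial cells and adipocytes in these changes was not tested.

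Inside mitochondria, 11 of 24 fatty acid oxidation genes were higher and none lower, with a median log2 change of 0.30. Cpt2, which completes the carnitine entry of fatty acids, and Acsl1, which activates them, did not overlap between groups. Cpt2 was at 62.5 to 96.6 CPM (median 87.3) against 110 to 139 CPM (median 131), and Acsl1 at 219 to 338 CPM (median 298) against 384 to 465 CPM (median 419). Slc25a20, the carnitine carrier between the 2 steps of entry, rose 1.54-fold, and Acadl, which begins oxidation of long chains, rose 1.57-fold (edgeR, adjusted p = 0.00027 and 0.000508). Of 18 lipid synthesis genes 1 was called, Me1, lower by 0.42 on the log2 scale.

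Glycolysis genes moved in both directions. Of 20 tested, 5 were lower and 2 higher, with 3 lower when RT.KO8 and RT.KO10 were left out. Aldoa, the muscle aldolase, fell without overlap, from a median of 5116 CPM (4652 to 6384) at room temperature to 3613 CPM (3028 to 4008) in the cold, by 0.53 on the log2 scale (edgeR, adjusted p = 6.48e-06). The lactate dehydrogenase subunits moved in opposite directions: Ldhb, the heart and slow-muscle subunit, rose from a median of 184 CPM (122 to 284) at room temperature to 339 CPM (227 to 396) in the cold, and Ldha, the fast-muscle subunit, went from a median of 406 CPM (254 to 436) at room temperature to 308 CPM (246 to 339) in the cold. The changes were 0.80 ± 0.14 and -0.36 ± 0.10 (edgeR, adjusted p = 0.000123 and 0.0117). Pkm, pyruvate kinase, changed by -1.27 ± 0.31, and RT.KO8 held the highest value. The levels were 19.6 to 210 CPM (median 30.2) at room temperature and 18 to 25.2 CPM (median 20.9) in the cold, and without RT.KO8 the change was -0.61.

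Glycogen genes gave 4 lower and 2 higher calls of 15. Pygm, the muscle glycogen phosphorylase, fell from a median of 2004 CPM (1889 to 2129) at room temperature to 1483 CPM (1115 to 1573) in the cold with no overlap, while Gbe1, the branching enzyme, rose 1.48-fold. Of the 18 genes for glucose uptake, lactate export and the shuttles, 3 were higher and 3 lower. Slc16a3, the lactate exporter of fast fibres, was at 333 to 496 CPM (median 360) against 217 to 312 CPM (median 242), without overlap (-0.62 ± 0.09; edgeR, adjusted p = 4.06e-06). Tbc1d4, which controls the insulin-driven move of the glucose transporter, fell by 0.75 on the log2 scale, and Mdh1 of the malate shuttle rose by 0.44.

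For pyruvate entry into mitochondria, 2 of 14 genes were higher and 1 lower. Pdp2 and Pdp1 encode phosphatases that switch pyruvate dehydrogenase on, and both were called, Pdp2 at 0.93 ± 0.21 and Pdp1 at 0.42 ± 0.12. Without RT.KO8 and RT.KO10 the change of Pdp1 was 0.30 ± 0.10 and missed the threshold (edgeR, adjusted p = 0.0517). Pdk4, the kinase that switches the enzyme off in fasting, was at 4.17 to 11.1 CPM (median 6.73) and 2.97 to 12.9 CPM (median 6.83); the log2 difference of -0.02 ± 0.27 was not called (edgeR, adjusted p = 0.967), and its sign turned in several alternatives.

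In the creatine and purine nucleotide lists 2 of 9 genes were higher and 2 lower. Muscle creatine kinase (Ckm), which buffers ATP in the cytosol, fell without overlap, from a median of 19830 CPM (17990 to 24350) at room temperature to 14300 CPM (11680 to 17390) in the cold. Adssl1 of the purine nucleotide cycle changed by -0.60 ± 0.13, with the highest value, 2617 CPM, in RT.KO8, and by -0.39 without that library. Ampd3, an AMP deaminase that rises in atrophying muscle, rose 1.59-fold (edgeR, adjusted p = 0.00447).

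Transcripts of mitochondrial DNA were lower or not called. Of 12 genes encoded by mitochondrial DNA, 6 were lower and none higher (median log2 change -0.31). Mt-nd5 and Mt-nd4l, subunits of complex I, fell by 0.58 and 0.80 on the log2 scale, and Mt-atp8, part of the ATP synthase, by 0.47 (edgeR, adjusted p = 4.22e-05, 6.48e-05 and 0.00535). Among nuclear-encoded subunits the calls were 2 higher and 3 lower of 35 for complex I (1 lower without RT.KO8 and RT.KO10), 1 and 0 of 4 for complex II, 0 of 10 for complex III, 1 and 0 of 15 for complex IV, and 1 and 0 of 16 for complex V. In complex III, 1 gene had an unadjusted p under 0.05 in edgeR and DESeq2 called 0. Cox6a1, the non-muscle isoform of a complex IV subunit, was at 76.9 to 94.5 CPM (median 88.8) against 110 to 138 CPM (median 120), without overlap, and Ndufs4 of complex I at 160 to 182 CPM (median 176) against 190 to 241 CPM (median 218). In the citric acid cycle 3 of 15 genes were higher and 1 lower: citrate synthase (Cs) rose by 0.43, Idh2 by 0.33 and Sdhb by 0.33. Idh3a fell by 0.21 on the log2 scale and was not called without RT.KO8 and RT.KO10, nor without any one of RT.KO10, RT.KO11, CC.KO2, CC.KO5 or CC.KO8.

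Uncoupling proteins and regulators of mitochondrial genes gave 3 higher and 3 lower calls of 26. Ucp2, a relative of UCP1 that immune cells also express, rose 2.64-fold, from a median of 4.14 CPM (2.56 to 6.6) at room temperature to 10.1 CPM (5.68 to 26.2) in the cold (edgeR, adjusted p = 4.98e-05). Ucp3, the relative found in muscle, spread widely, 75.2 to 184 CPM (median 131) and 44.1 to 248 CPM (median 149), and was not called (0.28 ± 0.26; edgeR, adjusted p = 0.542). Ppargc1a, which drives formation of mitochondria, missed the threshold at -0.55 ± 0.20 (edgeR, adjusted p = 0.0634). Esrrg, a nuclear receptor of oxidative fibres, rose without overlap from a median of 20.1 CPM (12.8 to 25.4) at room temperature to 30.6 CPM (27.4 to 40.5) in the cold. The catalytic subunits of AMP kinase moved in opposite directions: Prkaa2, the main one in muscle, fell by 0.65 on the log2 scale without overlap, and Prkaa1 rose by 0.55 (edgeR, adjusted p = 5.85e-07 and 0.000207).

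Pink1, which marks damaged mitochondria for removal, fell from a median of 599 CPM (547 to 935) at room temperature to 486 CPM (410 to 534) in the cold without overlap, 1 of 3 lower genes of 15 in the list of mitochondrial dynamics and mitophagy. The other two, Dnm1l and Opa1, were not called without RT.KO8 and RT.KO10, nor without any one of RT.KO8, RT.KO10, CC.KO7 or CC.KO8, and Opa1 also not without RT.KO11, CC.KO5, CC.KO6 or CC.KO9. Of 21 genes for ketone bodies and branched-chain amino acids, 4 were higher and 3 lower. Bdh1, which interconverts the main ketone bodies, was at 3.44 to 7.99 CPM (median 6.32) and 8.04 to 15.8 CPM (median 10.9), without overlap. Oxct1, which lets tissues use ketone bodies, rose by 0.34 and was not called without RT.KO8 and RT.KO10 (0.27 ± 0.09, adjusted p = 0.0575). Bckdk, which restrains branched-chain amino acid breakdown, fell by 0.38 on the log2 scale.

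Several genes known to rise after denervation or during growth arrest rose. Of 21 denervation and myogenic genes, 6 were higher and none lower (1 lower without RT.KO8 and RT.KO10), with a median log2 change of 0.21. Cdkn1a, the cell-cycle inhibitor p21, was at 5.16 to 23.2 CPM (median 15.8) and 34.4 to 119 CPM (median 92), with no overlap, a change of 2.53 ± 0.32 (edgeR, adjusted p = 2.43e-06). Gadd45a, a stress-induced partner of p21 in denervated muscle, rose without overlap, from a median of 17.6 CPM (9.66 to 19.7) at room temperature to 29.4 CPM (26.9 to 45.4) in the cold. Actc1, the cardiac actin re-expressed in stressed muscle, rose 3.75-fold with overlap, 5.08 to 56.5 CPM (median 18.3) and 53 to 162 CPM (median 86.4). Ankrd1, a stretch-responsive Z-disc protein, was at 43 to 173 CPM (median 90.5) and 145 to 431 CPM (median 257), a change of 1.43 ± 0.32 (edgeR, adjusted p = 0.00221). Proliferation genes gave no call among 14 tested by edgeR (1 at an unadjusted p under 0.05, and 0 by DESeq2).

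Of the TEAD transcription factors, which read the M-CAT element, Tead1 and Tead4 fell. In the list of 15 YAP and TEAD genes, 2 were higher and 2 lower. Tead1 was at 25.3 to 62 CPM (median 36.1) against 7.1 to 19.2 CPM (median 12.8), with no overlap, a 2.62-fold fall (edgeR, adjusted p = 2.62e-07), and Tead4 fell by 0.67 on the log2 scale. Tead3 was called at 0.60 ± 0.19 (edgeR, adjusted p = 0.029), and its call ended without RT.KO8 and RT.KO10 (0.47 ± 0.19, adjusted p = 0.104) and in 5 of 18 fits that left out 1 knockout library (RT.KO10, RT.KO13, RT.KO14, CC.KO2 or CC.KO4).

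Growth control genes gave 3 higher and 3 lower calls of 31, against 13.8% of all genes called in either direction. Igfbp5, a binding protein of insulin-like growth factors made by muscle, fell from a median of 498 CPM (399 to 662) at room temperature to 226 CPM (124 to 422) in the cold (-0.99 ± 0.17; edgeR, adjusted p = 9.08e-05). Acvr2b, the receptor of myostatin, fell by 0.76 on the log2 scale, and Ddit4, an inhibitor of mTORC1, rose by 0.74. Crym, which binds thyroid hormone in the cytosol, was at 3.47 to 11.1 CPM (median 5.42) and 10 to 116 CPM (median 25.5); the change was 2.41 ± 0.37 (edgeR, adjusted p = 4.12e-05), and CC.KO9 held the highest value.

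Atrophy ligases and autophagy genes gave 9 higher and 2 lower calls of 28, with none lower without RT.KO8 and RT.KO10, and a median log2 change of 0.18. Gabarapl1, an autophagosome protein, rose 1.62-fold, from a median of 136 CPM (120 to 160) at room temperature to 207 CPM (158 to 323) in the cold. The lysosomal protease Ctsl rose 1.97-fold, from a median of 52.3 CPM (24.5 to 69.9) at room temperature to 104 CPM (64.8 to 133) in the cold (edgeR, adjusted p = 0.000283). Glucocorticoid-responsive genes were higher for 3 and lower for 1 of 17, with a median log2 change of 0.34: Klf15, which drives fasting metabolism in muscle, rose 1.78-fold and Klf9 1.44-fold.

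**Figure D3:**
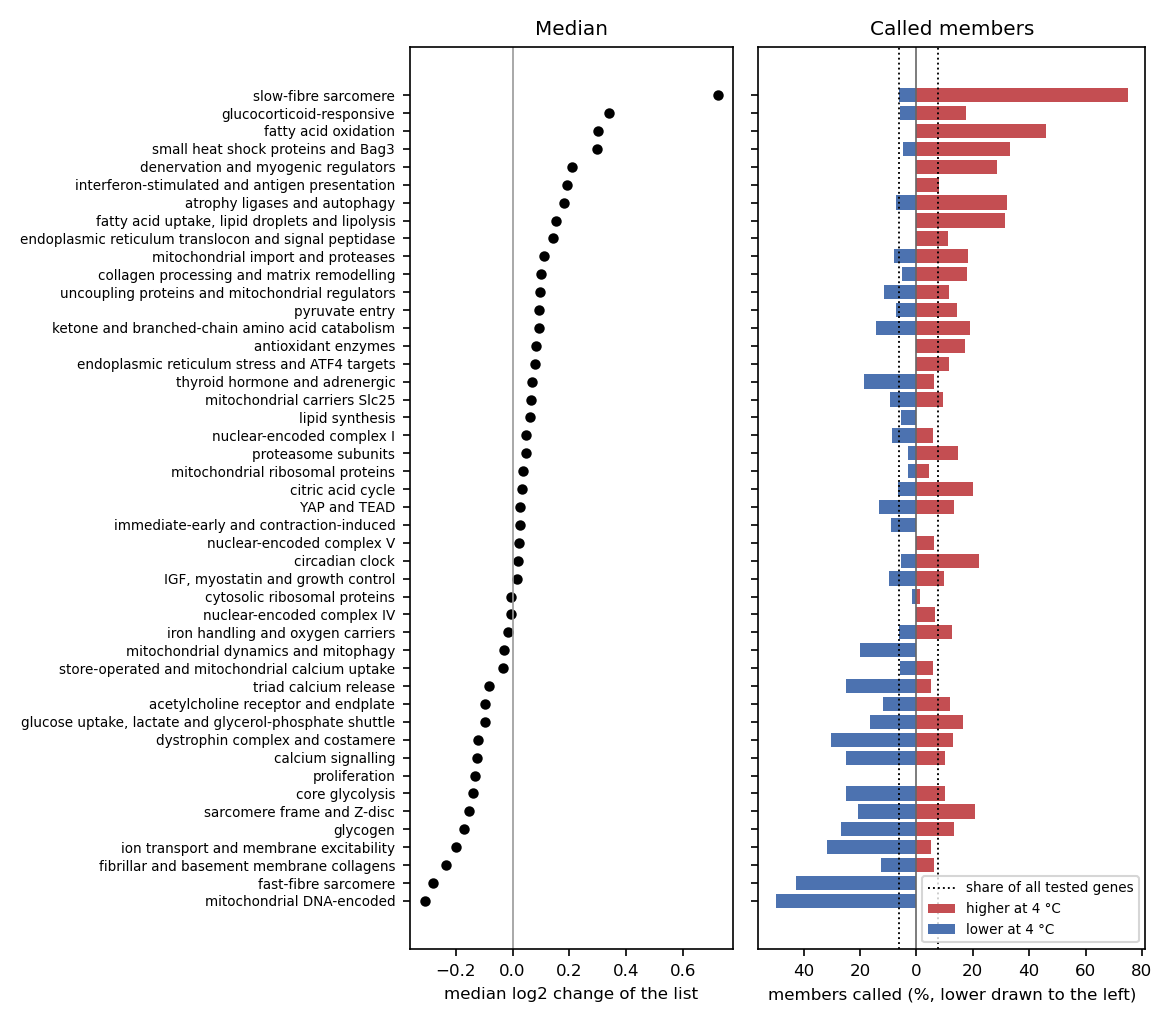
Median log2 change (left) and percentage of members called higher (red, to the right) or lower (blue, to the left) for the 46 gene lists with at least 12 tested genes, with dotted lines at the shares of all tested genes, 7.49% and 6.28%. The slow-fibre list has the highest median, 0.72, and the mitochondrial DNA-encoded and fast-fibre lists the lowest, -0.31 and -0.28.

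Lists for making and breaking down proteins differed in how many members were called, against 13.8% of all genes. Of 71 cytosolic ribosomal protein genes 1 was higher and 1 lower, neither of them without RT.KO8 and RT.KO10, and of 70 mitochondrial ones 3 and 2, both under that share. Mitochondrial import and protease genes were above it, with 7 higher and 3 lower calls of 38, and 1 lower without RT.KO8 and RT.KO10. Proteasome subunits gave 5 higher and 1 lower of 34, with 2 higher without this pair. In the list of endoplasmic reticulum stress and ATF4 targets 3 of 26 were higher, 5 without the pair, and none lower: Sdf2l1, a chaperone partner (0.80 ± 0.19), Trib3, a pseudokinase induced by ATF4 (1.05 ± 0.28), and Herpud1, which helps to degrade misfolded proteins (0.32 ± 0.09).

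Of 16 collagens 1 was higher (Col8a1) and 2 lower (Col1a1 and Col5a1), a share not below the 13.8% of all genes. Col5a1 was not called without RT.KO8 and RT.KO10 (-0.79 ± 0.33; edgeR, adjusted p = 0.123), nor without any one of RT.KO8, RT.KO10, RT.KO11, RT.KO13, CC.KO1, CC.KO3, CC.KO7, CC.KO8 or CC.KO9. Col1a1, the main chain of type I collagen, was at 262 to 1127 CPM (median 352) and 72.7 to 238 CPM (median 155), with no overlap and a change of -1.62 ± 0.31 (edgeR, adjusted p = 0.000523). Pcolce, which helps to cut procollagen, fell by 0.56 on the log2 scale. The 39 tested matrix remodelling genes held 7 higher and 2 lower calls (1 lower without RT.KO8 and RT.KO10). Plat, tissue plasminogen activator, was at 3.59 to 12.9 CPM (median 9.7) and 16.1 to 23 CPM (median 18.4), without overlap. Timp1, an inhibitor of matrix proteases, and Loxl1, a crosslinking enzyme of elastin, rose by 0.75 and 0.61 (edgeR, adjusted p = 0.00845 and 0.00642). Neither was called when the fit held only the 14 libraries that can be tied to a replicate number found in both groups (0.72 ± 0.26 and 0.53 ± 0.19; edgeR, adjusted p = 0.0888 and 0.085). The summed fibroblast markers were at 1322 to 2423 CPM and 1368 to 2230 CPM and the tendon markers at 202 to 944 and 256 to 845 CPM; neither differed beyond the spread (exact permutation test, adjusted p = 0.567 and 0.636). The fibroblast sum, with means of 1795 and 1672 CPM, holds Col1a1 itself, at means of 507 and 165 CPM. It is thus no separate measure for that gene, and 8 of its 11 tested genes had log2 differences above 0.

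Summed endothelial, macrophage, neutrophil and erythroid markers were higher in the cold, while those of smooth muscle and pericytes and of lymphocytes did not differ beyond the spread. Endothelial markers summed to 628 to 908 CPM at room temperature and 828 to 1313 CPM in the cold, a ratio of 1.48 (exact permutation test, adjusted p = 0.00074), and Esam, Flt1, Aqp1, Eng and Vwf were among the 8 of 15 called. Aqp1 alone averaged 302 and 496 CPM of mean sums of 703 and 1038 CPM. Cdh5 went from a mean of 22.8 to 24.9 CPM and Egfl7 from 76 to 78.2 CPM, and 14 of the 15 log2 differences were above 0. Macrophage markers were higher for 8 of 18 genes and lower for none, with sums of 156 to 211 and 208 to 374 CPM (exact permutation test, adjusted p = 0.000926). Of the 18 log2 differences 16 were above 0. Cd68 went from a mean of 4.87 to 4.65 CPM and Ctss from 9.8 to 8.4 CPM. Neutrophil and mast cell markers, at 3.73 to 11.9 and 11.2 to 20.1 CPM, were higher for S100a8 and S100a9 of 4 tested (exact permutation test, adjusted p = 0.00074); S100a9 was not called without CC.KO7. Erythroid markers summed to 225 to 776 and 509 to 1241 CPM, a ratio of 1.89 (exact permutation test, adjusted p = 0.00568). By edgeR 2 of 6 tested were higher and none lower, and all 6 log2 differences were above 0. Most of the mean erythroid sums of 424 and 802 CPM came from the Hba-a2 entries. These averaged 290 and 116 CPM at room temperature and 535 and 231 CPM in the cold. Smooth muscle and pericyte markers, with 1 of 14 called, had a ratio of 1.04, and lymphocyte markers, with none of 2 called, one of 1.08 (exact permutation test, adjusted p = 0.855 and 0.671). Des alone averaged 4954 CPM at room temperature and 5074 CPM in the cold, of mean smooth muscle sums of 5628 and 5830 CPM. The ratio of 1.04 therefore says little of the other smooth muscle and pericyte markers. All 5 lymphocyte markers averaged under 1 CPM in both groups, as did 2 of 7 erythroid markers and none of the 18 macrophage or 15 endothelial markers. Intestinal epithelial genes, which muscle should lack, were present at 487 to 783 and 409 to 613 CPM, none of 24 was called by edgeR (0 at an unadjusted p under 0.05, and 0 by DESeq2), and the sums did not differ beyond the spread (exact permutation test, adjusted p = 0.0709).

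**Figure D4:**
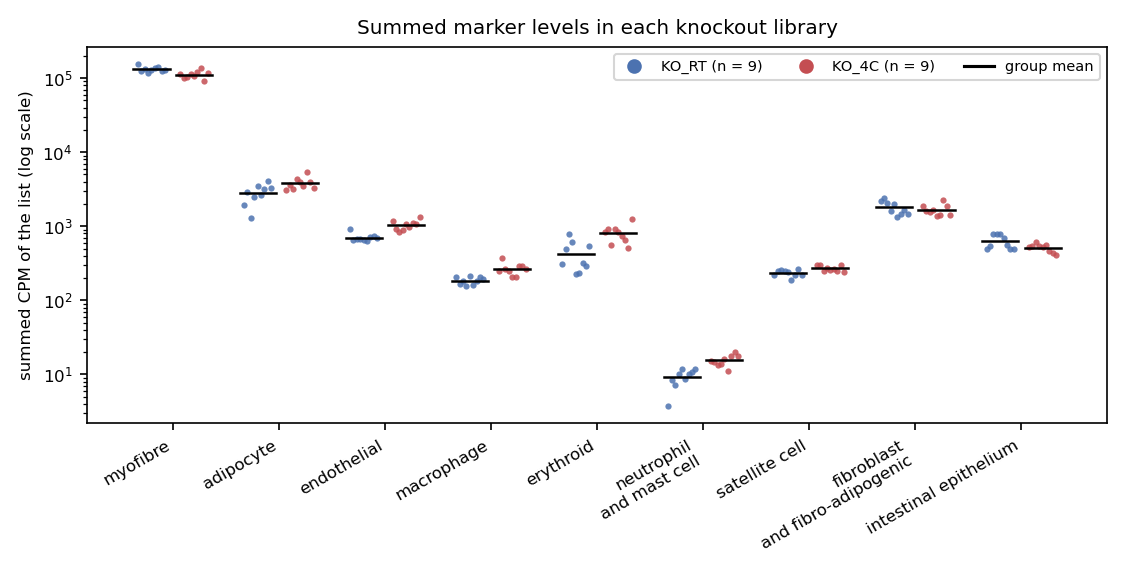
Summed CPM (log scale) of 9 marker lists in each of the 9 KO_RT (blue) and 9 KO_4C (red) libraries, with the group mean as a black bar. The endothelial, macrophage, erythroid and neutrophil sums sit higher in the cold, and the myofibre sum lower, each with some overlap.

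Spp1, osteopontin, had the largest called rise among genes with a symbol and a mean of at least 5 CPM. It ran from 0.285 to 2.82 CPM (median 1.08) at room temperature and from 2.03 to 21.5 CPM (median 12) in the cold; the groups overlapped at the lowest cold library, and the change was 3.17 ± 0.48 (edgeR, adjusted p = 2.92e-05). Gpnmb, a glycoprotein of lipid-laden and phagocytic macrophages, was at 5.25 to 10.5 CPM (median 7.34) and 13.3 to 28.4 CPM (median 20.6), without overlap. Lyz2, the macrophage lysozyme, went from a median of 20.1 CPM (15.5 to 25.7) at room temperature to 43.3 CPM (33.4 to 56.3) in the cold, also without overlap (1.12 ± 0.13; edgeR, adjusted p = 2.24e-07). The macrophage sum, with means of 185 and 268 CPM, holds Lyz2 itself, at means of 20.5 and 44.8 CPM. It is thus no separate measure for that gene. The part of macrophages in the rise of these genes was not tested. B2m, the light chain of MHC class I, rose 1.7-fold, 1 of 2 called genes of 25 in the interferon and antigen presentation list. The class I heavy chain gene RT1-A2, which near-identical copies can share reads with, split the libraries: 0.287 to 23 CPM (median 1.35) and 1.59 to 135 CPM (median 62.5). Its change of 2.84 ± 0.89 was called (edgeR, adjusted p = 0.032) but not without RT.KO8 and RT.KO10 (2.52 ± 0.94, adjusted p = 0.0873), nor without any one of RT.KO8, RT.KO9, RT.KO10, RT.KO11, RT.KO15, CC.KO2 or CC.KO5.

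Antioxidant enzymes were higher for 5 of 29 genes and lower for none, against 7.49% higher and 6.28% lower of all genes. Gpx1, a glutathione peroxidase that removes peroxides, was at 275 to 426 CPM (median 361) and 483 to 850 CPM (median 784), with no overlap (1.06 ± 0.11; edgeR, adjusted p = 6.19e-08). Hmox1, which degrades heme, and the quinone reductase Nqo1, both NRF2 targets, were also without overlap, with 4.88 to 17 CPM (median 12.6) and 18.7 to 26.9 CPM (median 23.3) at room temperature and 17.7 to 35 CPM (median 27) and 31.3 to 50.6 CPM (median 39.7) in the cold. Small heat shock proteins and their partners were higher for 7 of 21 genes and lower for 1, with a median of 0.30. Hspb8 and Bag3, which together clear damaged filamin from the Z-disc, rose 1.79-fold and 1.37-fold, and Hspb6 rose without overlap from a median of 517 CPM (326 to 582) at room temperature to 740 CPM (601 to 854) in the cold. Rbm3, an RNA-binding protein that cooled cells make, was at 53.7 to 77.8 CPM (median 64.5) and 41.3 to 96.7 CPM (median 69.6); the log2 difference of 0.13 ± 0.12 was not called (edgeR, adjusted p = 0.513).

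In the circadian clock list 4 of 18 genes were higher and 1 lower. Dbp, a clock-driven transcription factor, was at 9.46 to 20.7 CPM (median 16.6) and 13.3 to 105 CPM (median 32.8) (1.36 ± 0.26; edgeR, adjusted p = 0.00051), and Nr1d2, a repressor of the clock, rose 1.47-fold. Nfil3, which opposes Dbp at the same promoters, went from a median of 23 CPM (21.5 to 35) at room temperature to 12.8 CPM (2.89 to 25.8) in the cold, a fall of 0.94 on the log2 scale. The sources used here do not give the hour of dissection, and its part was not tested. Immediate-early genes gave 2 lower calls of 22, a share not above the 13.8% of all genes: Egr1 (-0.86 ± 0.26) and Fos (-0.90 ± 0.29). Both calls ended without RT.KO8 and RT.KO10 (-0.79 ± 0.27 and -0.94 ± 0.32; edgeR, adjusted p = 0.0594 and 0.0583). That of Fos also ended in 9 of 18 fits that left out 1 knockout library (RT.KO9, RT.KO15 or any one of CC.KO2 to CC.KO8), and that of Egr1 in 4 (RT.KO8, RT.KO9, RT.KO15 or CC.KO7).

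Hormone and cyclic AMP genes gave 1 higher (2 without RT.KO8 and RT.KO10) and 3 lower calls of 16. Crem, a cyclic-AMP-induced transcription factor, was at 18.4 to 26.7 CPM (median 23.5) and 35.5 to 54.8 CPM (median 37.9), without overlap, and rose 1.84-fold (edgeR, adjusted p = 1.9e-06). Thra, the main thyroid hormone receptor of muscle, fell from a median of 124 CPM (110 to 185) at room temperature to 91.3 CPM (78.1 to 109) in the cold, also without overlap. Prkar2a, a regulatory subunit of protein kinase A, fell by 0.86 on the log2 scale. Of 16 iron genes 2 were higher and 1 lower. Tfrc, the receptor that brings iron into cells, was at 131 to 306 CPM (median 188) and 66 to 95.7 CPM (median 83), with no overlap, a 2.38-fold fall (edgeR, adjusted p = 4.06e-06), and Iscu, the scaffold for iron-sulfur clusters, rose 1.32-fold. Outside the lists, Tpx2 and Espl1, genes of the mitotic spindle and of chromatid separation, were among the largest falls, from a median of 30.7 CPM (21.3 to 52.2) at room temperature to 11.9 CPM (6.6 to 26.6) in the cold for Tpx2 and from a median of 12.8 CPM (6.02 to 16.4) at room temperature to 5.41 CPM (3.79 to 8.16) in the cold for Espl1.

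The same cold treatment in control rats, with 7 libraries per group and no samples in common, gave 1439 higher (12.4%) and 960 lower (8.28%) calls. Of the genes higher in knockout muscle, 398 were also higher in control muscle, which is 45.9% of the knockout calls and 27.7% of the control calls. Among lower genes 386 were shared, 53.0% and 40.2%. Only Klhl38 was called in opposite directions. Whether a response differed between genotypes was asked by the interaction, the knockout change minus the control change, which called 3 of 11594 genes (0.0259%), while 1499 had an unadjusted p under 0.05. This count rested on single libraries: it was 725 without RT.KO8 and RT.KO10, 226 without RT.KO10 alone, 124 without RT.KO8 and 98 without the control library RT.wt4. It was 0 without any one of 17 other libraries, and 288 when RT.wt2 and RT.wt3 were left out with RT.KO8 and RT.KO10. RT.wt2 and RT.wt3 were the lowest control libraries on the first principal component of all 32 libraries, at -60 and -41.3.

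Klhl38, a muscle protein of the Kelch family, was at 17.9 to 26.6 CPM (median 20.7) and 22.2 to 36.8 CPM (median 27.5) in knockout muscle. It rose by 0.41 ± 0.11 there and changed by -0.41 ± 0.12 in control muscle, an interaction of 0.82 ± 0.16 (edgeR, adjusted p = 0.0479). Asah2, a ceramidase, was not called in knockout muscle (-0.25 ± 0.17) and rose in control muscle (1.02 ± 0.19), an interaction of -1.28 ± 0.25 (edgeR, adjusted p = 0.0479). The uncharacterised gene LOC100360316 showed a log2 difference of 0.06 ± 0.16 in knockout and a change of 1.40 ± 0.19 in control muscle, with an interaction of -1.34 ± 0.25 (edgeR, adjusted p = 0.0441).

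Side by side, the changes of the leading genes were close in size in both genotypes for some and not for others. Sln changed by 3.01 ± 0.37 in knockout and 3.29 ± 0.43 in control muscle, and Chrnd by 1.61 ± 0.12 and 1.56 ± 0.14. The list of fatty acid uptake and storage had 6 higher calls and a median log2 change of 0.15 in knockout muscle, and 7 and 0.23 in control muscle. Within it the knockout estimates were the larger for Lpl (1.32 ± 0.13 against 0.75 ± 0.14), Gpihbp1 (1.41 ± 0.18 against 0.66 ± 0.20) and Lipe (0.79 ± 0.11 against 0.23 ± 0.12), and the smaller for Fabp4 (0.67 ± 0.13 against 1.16 ± 0.15). None of these 4 passed the interaction test (edgeR, adjusted p = 0.18, 0.206, 0.134 and 0.27). The oxidation genes Acsl1, at 0.58 ± 0.09 and 0.59 ± 0.10, and Acadl, at 0.65 ± 0.13 and 0.60 ± 0.14, had close estimates. Without RT.KO8 and RT.KO10 the interactions of Gpihbp1, Lipe and Fabp4 passed, at 0.88 ± 0.27, 0.60 ± 0.17 and -0.62 ± 0.14 (edgeR, adjusted p = 0.0445, 0.0246 and 0.00781), and that of Lpl did not, at 0.53 ± 0.19 (adjusted p = 0.0939). The lysosomal protease Ctsl, at 0.98 ± 0.18 in knockout and 1.54 ± 0.21 in control muscle, passed in that fit too (-0.73 ± 0.22; edgeR, adjusted p = 0.0418) and not with all libraries (adjusted p = 0.381). Ryr1 had -1.07 ± 0.17 in knockout and -0.43 ± 0.20 in control muscle, an interaction of -0.64 ± 0.26 that did not pass (edgeR, adjusted p = 0.275) and was -0.35 ± 0.17 without RT.KO8 and RT.KO10 (adjusted p = 0.248). Col1a1 changed by -1.62 ± 0.31 in knockout muscle, and its log2 difference was -0.42 ± 0.34 in control muscle (edgeR quasi-likelihood test, adjusted p of the interaction = 0.253). Rbm3, with 0.13 ± 0.12 in knockout and 0.68 ± 0.13 in control muscle, and Pdk4, with -0.02 ± 0.27 and -0.85 ± 0.30, were called in control muscle only, and their interaction did not pass (edgeR, adjusted p = 0.154 and 0.378).

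**Figure D5:**
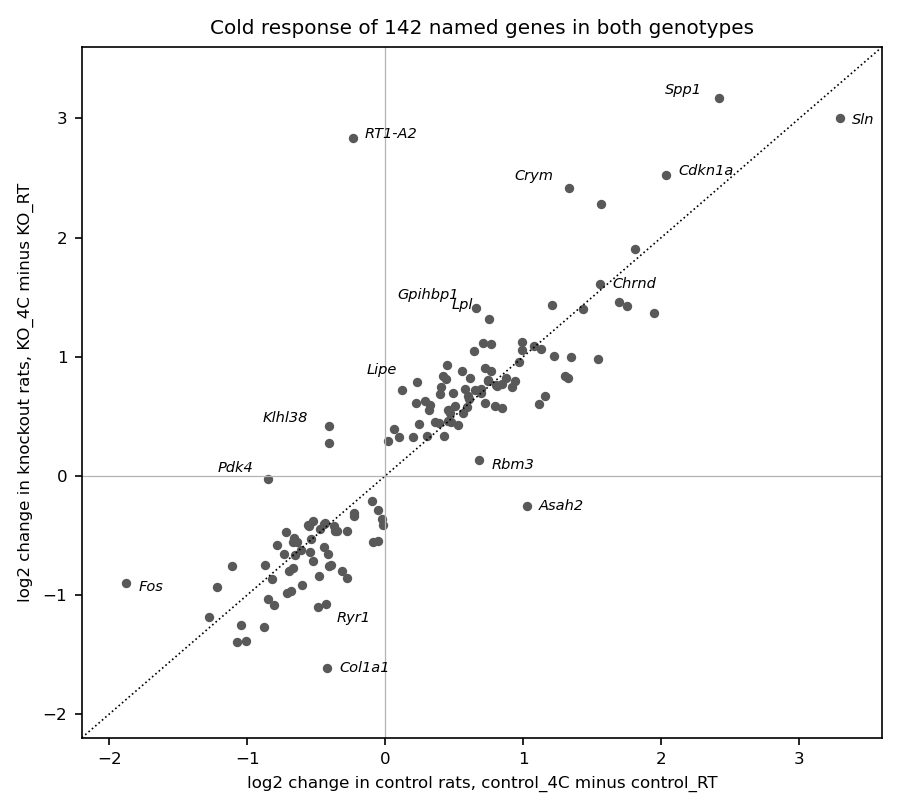
Log2 cold change of 142 genes named in the text in knockout rats (vertical axis, 9 against 9 libraries) and control rats (horizontal axis, 7 against 7), with a dotted line where both are equal. Sln lies at 3.01 and 3.29, and 138 of the 142 genes have the same sign in both genotypes. Klhl38, Asah2 and RT1-A2 are among those in quadrants of opposite sign, RT1-A2 at 2.84 in knockout and -0.24 in control rats.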

How the data were processed

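The authors deposited raw counts of each Ensembl gene, in whole numbers, and a normalised signal table (counts divided by a size factor per library), which was used here only for gene symbols. Per the submitters' processing notes R 3.4.3, DESeq2 1.18.1 and the build Rnor_6.0 were used; the aligner and counter were not given in the sources used here. RNA was prepared with Trizol and 500 ng per sample was sequenced as 50 bp forward QuantSeq reads, per the labels' protocols. No deposited count was odd; counts divided by 2 were one alternative. The columns RT.KO8 and RT.KO9 each match the title of 1 sample and the description of another, so they were used as members of KO_RT without a sample number, and libraries are named by column.

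Of 12901 genes, 11594 passed filterByExpr (minimum count 10) and were tested with edgeR 4.0.16 (R 4.3.3): TMM factors, 1 mean per group over all 32 libraries and no covariate, the quasi-likelihood F test, and Benjamini-Hochberg adjustment per contrast. The SE is the absolute log2 change over the square root of F. At 7.28e+06 to 2.58e+07 counts per library, counting error matters for genes of a few CPM. Library measures were compared by a two-sided exact permutation test, adjusted over 18 measures.

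Named genes were called, with a mean of at least 5 CPM over the knockout libraries: per direction the 12 of largest fold and the 8 of smallest p, 4 of smallest p per list, the interaction's 8 of smallest p, and 18 genes of prior interest; a selection of these is given. Other list members are named as examples after their values were seen. The members and lists were chosen with earlier results of these data known. Fits were tested on simulated counts. Alternatives were RLE factors, TMM leaving out the 20 genes of highest counts, testing unfiltered genes, DESeq2 1.42.0, knockout libraries alone, 1 surrogate variable (sva 3.50.0), the replicate block, an adjusted p of 0.01 and leaving out libraries. Promoters were matched by Entrez ID. A few genes counted in the lists are not reported here by name.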

Additional observations from a re-analysis of the deposited data

Results flagged for a closer look

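A library was marked when its distance from the nearest other library of its group was more than 0.493 of the range of the 9 values. Over 142 genes and 18 library measures in both knockout groups this marked 42 values, and chance marks about 1 in 20 groups. Of the 42, 22 belonged to RT.KO8. Its values were the highest of KO_RT for Ryr1 (3688 CPM), Actn3 (4738 CPM), Myom2 (278.5 CPM), Myh1 (55250 CPM), Neb (11290 CPM), Cav3 (487 CPM), Aldoa (6384 CPM), Pkm (210.2 CPM), Ckm (24350 CPM) and Adssl1 (2617 CPM). The same library was highest for Pink1 (935 CPM), Tead1 (61.95 CPM), Pcolce (47.04 CPM), Klf9 (477.3 CPM), Kcnc1 (25.81 CPM) and Kcna7 (47.04 CPM), for Aqp1 (453.5 CPM), Dnm1l (50.19 CPM), Jsrp1 (750.9 CPM) and Trib3 (5.163 CPM), and in the summed endothelial markers (908.2 CPM). For Tmem38b it was the lowest, at 127.3 CPM.

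Among the other room-temperature libraries, RT.KO10 was lowest for Ldha (253.8 CPM) and Flt1 (25.88 CPM) and highest for Herpud1 (979.9 CPM), and RT.KO15 was highest for Timp1 (8.208 CPM) and lowest for Nqo1 (18.7 CPM). In the cold group, CC.KO6 was highest for Atp2a2 (1560 CPM), Chrnd (111.8 CPM), Tnni1 (1737 CPM), Eng (117.1 CPM) and Cav3 (164.6 CPM). CC.KO2 was highest for Actc1 (161.5 CPM) and B2m (465.6 CPM), and CC.KO7 for Hspb8 (1920 CPM) and the summed smooth muscle markers (10020 CPM). CC.KO8 was lowest for Pygm (1115 CPM) and highest in the summed tendon markers (845.4 CPM). CC.KO9 was highest for Crym (115.6 CPM), CC.KO1 for Fos (62.03 CPM), CC.KO3 for Vwf (18.76 CPM) and CC.KO5 for Col8a1 (7.718 CPM).

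The cold response differed between knockout and control rats by the interaction test of edgeR for 3 genes, with log2 differences of -1.34 for LOC100360316, -1.28 for Asah2 and 0.82 for Klhl38.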

How the results depend on the processing

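Over the alternatives run at an adjusted p of 0.05, the count of genes called after cold in knockout muscle stayed within 1.5 times of 1596, from 1110 to 1841, and at 0.01 it was 799. Leaving out 1 library at a time gave 1331 to 1709. No paired fit is the main one, because the replicate numbers pair the samples only in name: correlations of same-numbered deviations were 0.003 to 0.154. With the replicate block over 14 libraries 1198 genes were called, and 1110 without the block in the same 14. The interaction count of 3 became 1 with TMM factors computed without the 20 most abundant genes, 1 without a filter, 0 at 0.01, 112 with DESeq2, 725 without RT.KO8 and RT.KO10, and 288 without these and RT.wt2 and RT.wt3 (chosen after seeing the data). Leaving out 1 library at a time gave 0 to 226 there. Of 137 genes in the text called after cold, all 137 kept their direction in 30 alternatives. At 0.05, 114 kept their call in all of them and 23 lost it in at least 1. The calls of Tpx2, Rcan1, Ldha and Ampd3 ended only with the replicate block, and that of Klhl38 only in the same 14 libraries without it. For each of the others, a setting that ended the call is given beside its value. The uncalled log2 difference of Pdk4, -0.02, changed sign to 0.13 without RT.KO8 and RT.KO10, with or without RT.wt2 and RT.wt3, to 0.11 with 1 surrogate variable, and ran from -0.203 to 0.068 when 1 library was left out at a time, positive without any one of RT.KO8, RT.KO10, RT.KO13, CC.KO6, CC.KO7, CC.KO8 or CC.KO9. That of Ucp3, 0.28, became -0.11 with the replicate block and -0.043 in the same 14 libraries without it. Of 18 library measures, 9 passed at 0.05, and 9 without RT.KO8 and RT.KO10 (chosen after seeing the data), with the mitochondrial share and the Schwann cell markers in place of the adipocyte and neuron markers. The causes of these shifts were not tested. Counting error limits genes of a few CPM, such as Gpihbp1 and Spp1 at room temperature.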
